A study of Mus musculus with 6 samples.

Results

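The genes described here encode cytoplasmic intermediate filament proteins outside the keratins and the nuclear lamins. They are Vim, Nes, Des, Gfap, Synm, Nefl, Nefm, Lmna, Lmnb1 and Lmnb2, 10 of the 24214 RefSeq features of each count table. They were taken by their gene symbols, with earlier results of these data known. The cells were 393P, an epithelial line of murine lung adenocarcinoma (LUAD) labelled as C57BL/6, with an empty vector (393P_vector, 3 samples) or an expression vector for the transcription factor ZEB1 (393P_ZEB1, 3 samples). ZEB1 represses epithelial genes and drives epithelial-to-mesenchymal transition (EMT). Cells of both groups were transfectants grown in the same serum-containing RPMI-1640 medium, and total RNA was sequenced on the SOLiD platform. The labels do not say whether the samples of a group came from separate transfections or cultures, so the p-values measure only the spread between these samples, and ZEB1 cannot be told apart from any other difference between the transfectants.

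Intermediate filaments are ropes of coiled-coil proteins that give cells mechanical strength. Epithelial cells build them mainly from keratins, whereas mesenchymal cells build them from vimentin, and the exchange of keratin for vimentin is a textbook feature of EMT. Lamins are the intermediate filaments of the nucleus, where A-type lamins (both encoded by Lmna) and B-type lamins (Lmnb1 and Lmnb2) form the meshwork beneath the inner nuclear membrane.

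Promoter windows of RefSeq genes on GRCm38.p6, 250 bases before to 50 bases after each annotated start, matched 7 of the 10 members, in 9 windows. Nefl, Nefm and Lmnb1 had none. Both strands were searched for the E-boxes CAGGTG and CAGGTA, which ZEB1 is known to bind, for the TATA box letters TATAAA and for CCAAT. The 250 bases upstream of 3 members are shown because Vim and Nes changed in opposite directions, while Lmna carried one of the E-boxes and passed the test in neither direction. The intervals are chr2:13574061-13574310 on the plus strand for Vim, chr3:87970843-87971092 on the plus strand for Nes and chr3:88503353-88503602 on the minus strand for Lmna. Capitals mark the matches, which on the opposite strand read TACCTG for CAGGTA and ATTGG for CCAAT.
Vim: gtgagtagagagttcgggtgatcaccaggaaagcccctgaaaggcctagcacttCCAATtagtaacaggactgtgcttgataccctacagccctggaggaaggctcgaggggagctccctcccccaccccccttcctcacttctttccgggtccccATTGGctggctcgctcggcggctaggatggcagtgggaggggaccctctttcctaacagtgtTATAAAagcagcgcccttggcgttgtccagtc
Nes: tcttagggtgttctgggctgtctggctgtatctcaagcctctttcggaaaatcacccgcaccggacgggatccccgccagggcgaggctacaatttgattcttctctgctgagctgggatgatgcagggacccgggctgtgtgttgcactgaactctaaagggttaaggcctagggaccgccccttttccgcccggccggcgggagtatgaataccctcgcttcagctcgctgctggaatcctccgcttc
Lmna: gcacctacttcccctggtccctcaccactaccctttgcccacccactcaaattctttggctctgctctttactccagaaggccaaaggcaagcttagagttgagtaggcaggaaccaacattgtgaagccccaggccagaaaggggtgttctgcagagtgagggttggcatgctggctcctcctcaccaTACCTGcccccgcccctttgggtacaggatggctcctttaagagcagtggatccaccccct

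The Vim window held TATAAA 32 bases upstream of the start and CCAAT at 196 and 94 bases, the latter on the opposite strand. No searched motif was in the Nes window. Lmna had CAGGTA 61 bases upstream of this start and 2 further matches at its internal start, and Lmnb2 had CAGGTG 31 bases upstream of its second annotated start, so 2 of the 7 members held an E-box of either kind. Of all 32817 windows, 29.5% held either E-box, 20.2% CAGGTG, 11.95% CAGGTA, 13.6% TATAAA and 37.4% CCAAT. These are shares of windows and not of members, and Lmna and Lmnb2 had 2 windows each. The data hold no measure of binding at these letters.

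Total counts were between 57844355 and 79158012 in 393P_vector samples and between 54442450 and 61251074 in 393P_ZEB1 samples. At these depths 3 counts, the smallest number treated as detected, equalled 0.0379 to 0.0551 CPM (reads divided by library size after TMM normalization). In a test across 13884 genes, Zeb1 was 21.2, 22.02 and 21.4 CPM in 393P_vector replicates 1 to 3 and 54.9, 48.9 and 51.3 CPM in 393P_ZEB1 replicates 1 to 3 (log2 fold change 1.26, standard error 0.10, adjusted p = 6.05e-05, edgeR), without separating reads of the introduced gene from those of its own. The mouse gene lies on chromosome 18, where 64.5% of all tested genes were higher in 393P_ZEB1. 393P_vector replicate 3 stood apart: 10.2% and 11.01% of genes differed from the other vector samples by at least 2-fold, against 2.26% to 2.53% for all other pairs within a group. Results are therefore also given without that library. Of the 6 members with a mean of at least 1 CPM, this library was the lowest vector sample for 6 and the lowest of all samples for 5. Markers of other cell types were mostly low. For fibroblasts, 4 of 7 were below 1 CPM in every sample, with sums of 2.36 to 3.23 CPM in 393P_vector and 2.39 to 3.08 CPM in 393P_ZEB1. Within that sum, Col3a1 was 0.0850 to 0.177 CPM in 393P_vector and 1.42 to 1.94 CPM in 393P_ZEB1, and Pdgfra 1.39 to 1.40 and 0.270 to 0.426 CPM, so that the sums without Pdgfra were 0.963 to 1.84 and 1.98 to 2.75 CPM. The part of fibroblast transcripts in the results was not tested. For leukocytes 4 of 5 were below 1 CPM, with sums of 1.39 to 3.62 and 1.21 to 1.46 CPM. The 6 lung epithelial markers summed to 3348 to 3630 CPM in 393P_vector and 1878 to 1999 CPM in 393P_ZEB1. Krt8, Krt18, Cdh1 and Epcam, which mark epithelia in general, were between 92.3 and 2436 CPM in 393P_vector, whereas Nkx2-1 and Sftpc, which mark lung, did not exceed 0.0561 and 0.0540 CPM in any sample of either group.

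Among the members, the cells transcribed mainly Vim, Lmna and Lmnb1. Lmnb2 and Nes were lower, and Nefm, Des, Synm, Gfap and Nefl were scarce. Per kilobase of exon, which allows genes of different length to be compared, the mean level of Vim was 3019 ± 184 CPM per kilobase (SD, n = 3) in 393P_vector and 4017 ± 270 (SD, n = 3) in 393P_ZEB1. By this measure Vim ranked 5 among 23265 features of at least 200 bases in the epithelial vector cells and 3 in 393P_ZEB1 cells. Vimentin mRNA was thus among the most abundant transcripts in both groups. Lmna followed with mean levels of 484 and 515 CPM per kilobase in 393P_vector and 393P_ZEB1, ranks 48 and 43, and Lmnb1 with 75.5 and 115, ranks 844 and 401.

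**Figure D1:**
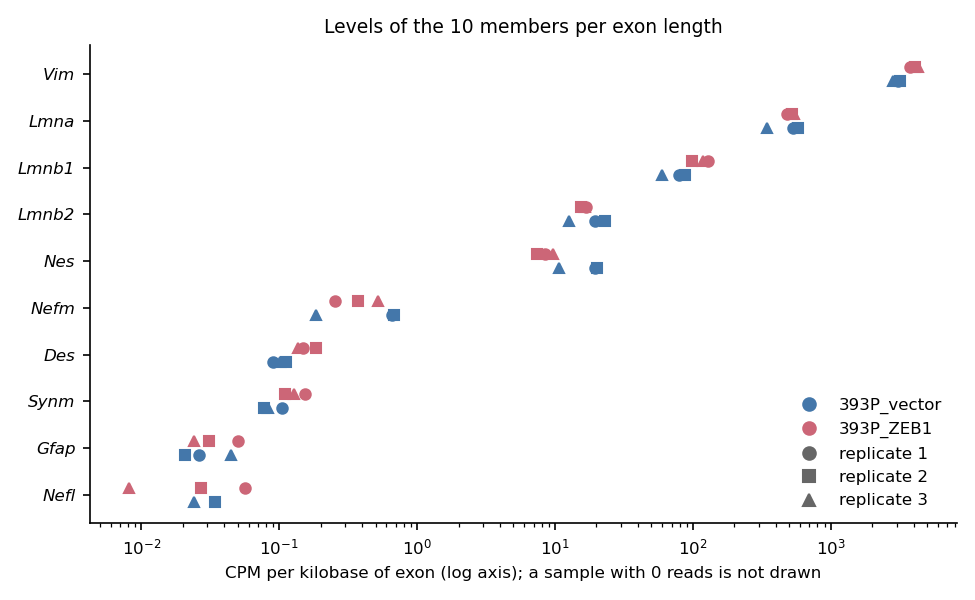
Levels of the 10 members in each sample, as CPM per kilobase of exon on a log axis, with 393P_vector samples in blue and 393P_ZEB1 samples in red and marker shapes for the replicates. Vim lies highest in both groups (means of 3019 and 4017), and Nefm, Des, Synm, Gfap and Nefl lie below 1 CPM per kilobase in every sample.

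Lower in the order were Lmnb2 at 18.4 and 16.2 CPM per kilobase and Nes at 16.8 and 8.48. The ranges of these neighbours overlapped in 393P_vector, and in 393P_ZEB1 Lmnb2 lay above Nes in every sample. Below a wide gap came Nefm at 0.509 and 0.382, Des at 0.101 and 0.157, Synm at 0.0887 and 0.131, Gfap at 0.0305 and 0.0353 and Nefl at 0.0194 and 0.0305 CPM per kilobase. The order of the 10 means was the same in both groups, although Des and Synm overlapped in each group, as did Gfap and Nefl. Vim made up 81.7% to 86.7% of the summed level of the 10 members in the 6 samples, Lmna 10.7% to 14.9% and Lmnb1 1.84% to 2.93%.

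Of the 10 members, 8 had enough reads to be tested, and Gfap and Nefl did not pass the filter on low counts. Vim and Lmnb1 were higher in 393P_ZEB1 cells and Nes was lower, while Des, Synm, Nefm, Lmna and Lmnb2 did not pass the threshold of an adjusted p below 0.05. In bulk RNA, a change in every cell and a change in the share of cells of one kind cannot be told apart. That is 2 higher and 1 lower of 8, where 18.3% of all 13884 genes tested were higher and 19.3% were lower. Samples of the 2 groups did not overlap, with 393P_ZEB1 higher, for Vim, Lmnb1, Des and Synm, and with 393P_ZEB1 lower for Nes. Over all tested genes 26.3% were separated in this way upwards and 26.5% downwards. The median log2 fold change of the 8 tested members was 0.25, with a range from -0.98 to 0.63, and that of all tested genes was -0.02. Without 393P_vector replicate 3, 2 members were higher (background 26.2% of 14098 genes) and 3 were lower (26.8%), because Lmnb2 and Nefm joined Nes. With any other single sample left out, fewer members passed. They were 1 higher and 1 lower without 393P_vector replicate 1 or 2. They were 1 higher and 0 lower without 393P_ZEB1 replicate 1 or 2, and 0 higher and 1 lower without 393P_ZEB1 replicate 3. Calls over all genes fell in these refits too, from 5219 in the main fit. They numbered 4226 and 4588 without 393P_vector replicates 1 and 2, and 3714, 3691 and 3644 without 393P_ZEB1 replicates 1, 2 and 3.

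**Figure D2:**
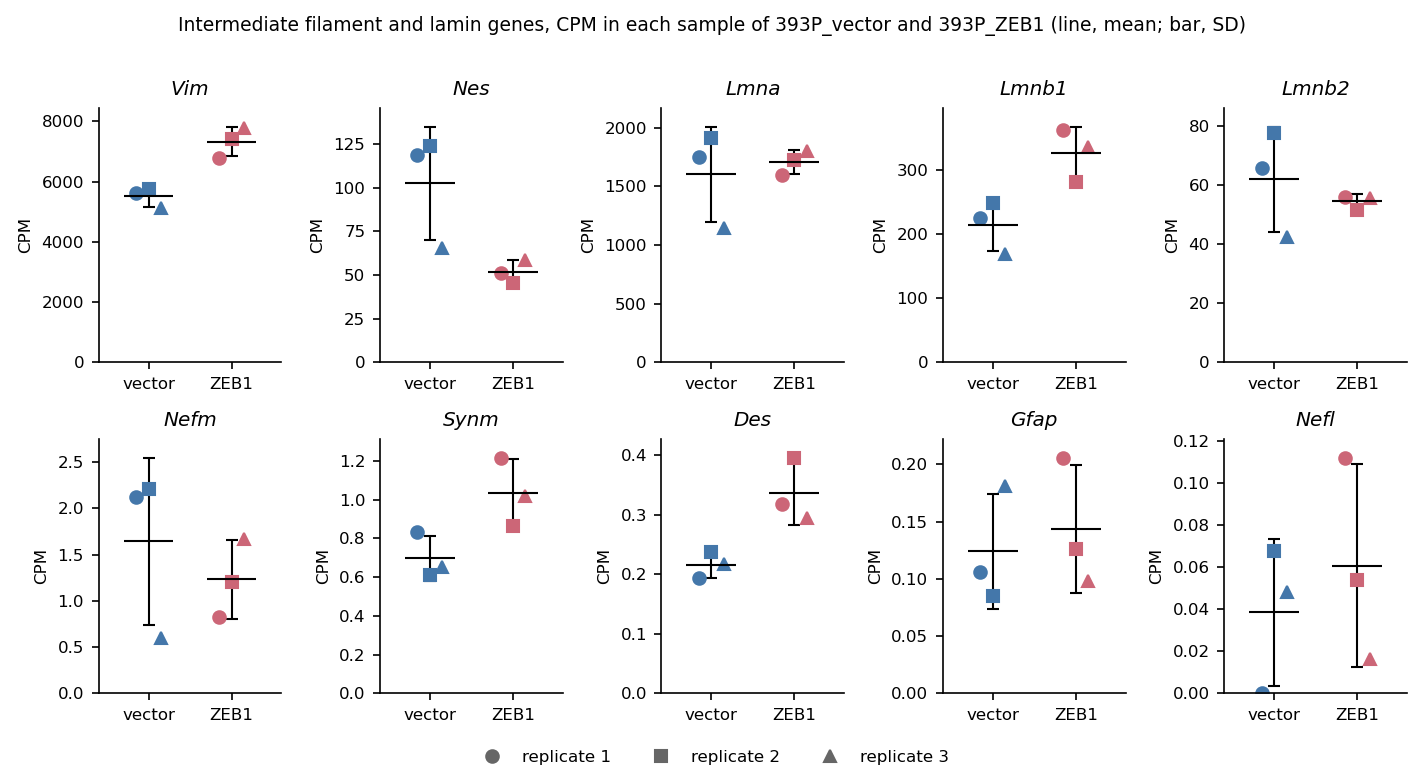
CPM of each member in the 3 samples of 393P_vector (blue) and 393P_ZEB1 (red), 1 panel per gene with its own linear axis from 0, with marker shapes for the replicates, a line at the mean and a bar for the SD. For Vim the 393P_ZEB1 samples, 6799 to 7771 CPM, all lie above the 393P_vector samples, 5132 to 5771 CPM, whereas for Lmna 393P_vector replicate 3 lies apart at 1148 CPM and the groups overlap.

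Vim, on chromosome 2 from 13574311 to 13582826 (GRCm38, plus strand, 9 exons), encodes vimentin, the main intermediate filament protein of mesenchymal cells. It measured 5624, 5771 and 5132 CPM in 393P_vector replicates 1 to 3 and 6799, 7424 and 7771 CPM in 393P_ZEB1 replicates 1 to 3. Every 393P_ZEB1 sample was above every 393P_vector sample. The fold change was 1.33 (log2 fold change 0.41, standard error 0.12, 95% interval 0.14 to 0.68, adjusted p = 0.0256, edgeR). Vim took 0.539% to 0.568% of all counts in 393P_vector samples and 0.668% to 0.775% in 393P_ZEB1 samples, and it was the gene with the fourth highest summed count. All 9 exons had over 10 reads in every sample. The size of the change stayed between 0.36 and 0.47 on the log2 scale when each sample was left out in turn, but the adjusted p then lay between 0.00934 and 0.0996. It was below the threshold only without 393P_vector replicate 3 (0.36, adjusted p = 0.00934) or 393P_ZEB1 replicate 1 (adjusted p = 0.0386).

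Nes and Vim moved in opposite directions. Nes, on chromosome 3 from 87971093 to 87980451 (plus strand, 4 exons), encodes nestin, a large filament protein of progenitor cells that assembles together with vimentin. Its values were 119, 124 and 65.4 CPM in 393P_vector replicates 1 to 3 and 51.4, 45.6 and 58.8 CPM in 393P_ZEB1 replicates 1 to 3. The groups did not overlap, with 393P_vector replicate 3 closest to the 393P_ZEB1 samples. Nes fell by 0.98 on the log2 scale, 1.97-fold (standard error 0.24, 95% interval -1.54 to -0.42, adjusted p = 0.0150, edgeR). Without 393P_vector replicate 3 its log2 fold change was -1.22 (adjusted p = 4.41e-06). Without 393P_ZEB1 replicate 1 or replicate 2, the adjusted p was 0.0664 and 0.0659. Scaled to Vim in the same sample, the level of Nes per kilobase was 0.00629, 0.00639 and 0.00380 of that of Vim in 393P_vector and 0.00226, 0.00183 and 0.00225 in 393P_ZEB1. This ratio was lower in all 393P_ZEB1 samples, by a mean of -1.35 on the log2 scale (exact permutation test, two-sided, p = 0.1, the smallest that 3 samples against 3 allow).

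Lmna, on chromosome 3 from 88481149 to 88503332 (minus strand, 14 exons), encodes lamins A and C, whose transcripts were counted together. Values in 393P_vector were 1749, 1915 and 1148 CPM and in 393P_ZEB1 1597, 1720 and 1801 CPM, in the order of the replicates. The groups overlapped, with 393P_vector samples both highest and lowest. The log2 fold change was 0.09 (standard error 0.19, 95% interval -0.35 to 0.53, adjusted p = 0.745, edgeR), so the data leave room for a change of up to 1.45-fold upwards or down to 0.783 of the vector level. Its sign turned to -0.10 without 393P_vector replicate 3 (adjusted p = 0.363) and to -0.045 when limma voom weighted the samples by their quality (adjusted p = 0.667). The level of Lmna relative to that of Vim overlapped between groups, at 0.123 to 0.183 in 393P_vector and 0.128 to 0.129 in 393P_ZEB1 (mean log2 difference -0.29, exact permutation p = 0.4, two-sided).

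Of the B-type lamins, which remain farnesylated and bound to the inner nuclear membrane, Lmnb1 passed the test and Lmnb2 did not. Lmnb1, on chromosome 18 from 56707813 to 56753424 (plus strand, 11 exons), measured 224, 248 and 169 CPM in 393P_vector replicates 1 to 3 and 362, 281 and 336 CPM in 393P_ZEB1 replicates 1 to 3. All 393P_ZEB1 samples lay above all 393P_vector samples. It rose 1.53-fold (log2 fold change 0.61, standard error 0.17, 95% interval 0.22 to 1.00, adjusted p = 0.0236, edgeR). The change was 0.46 without 393P_vector replicate 3 (adjusted p = 0.00456), and the adjusted p was 0.0925 without 393P_ZEB1 replicate 1 and 0.0732 without 393P_ZEB1 replicate 3. The chromosome as a whole moved with it: the median log2 fold change of its 394 tested genes was 0.64, and 64.5% of them were called higher. Lmnb1 was -0.027 from that median, at percentile 45.2 of its chromosome and percentile 85.1 of all genes. A change of Lmnb1 itself and the shift of its chromosome cannot be told apart.

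Lmnb2, on chromosome 10 from 80901363 to 80918245 (minus strand, 12 exons), measured 65.6, 77.5 and 42.5 CPM in 393P_vector and 56.0, 51.5 and 55.6 CPM in 393P_ZEB1, in replicate order. The 393P_ZEB1 samples fell between 393P_vector replicate 3 and the other vector samples. The log2 fold change was -0.19 (standard error 0.21, 95% interval -0.66 to 0.29, adjusted p = 0.515, edgeR). Without 393P_vector replicate 3 it was -0.40 and passed the threshold (adjusted p = 0.00498), and without 393P_vector replicate 2 it was 0.014. The median of the 676 tested genes of chromosome 10 was -0.30. Lmnb2 in the main fit was 0.11 less that median, at percentile 57.7 of its chromosome. Vim lay on a chromosome with a median of -0.05 over 1107 genes and Nes and Lmna on 1 with a median of 0.06 over 678 genes, so that their values less the median of their chromosome were 0.46, -1.05 and 0.02.

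**Figure D3:**
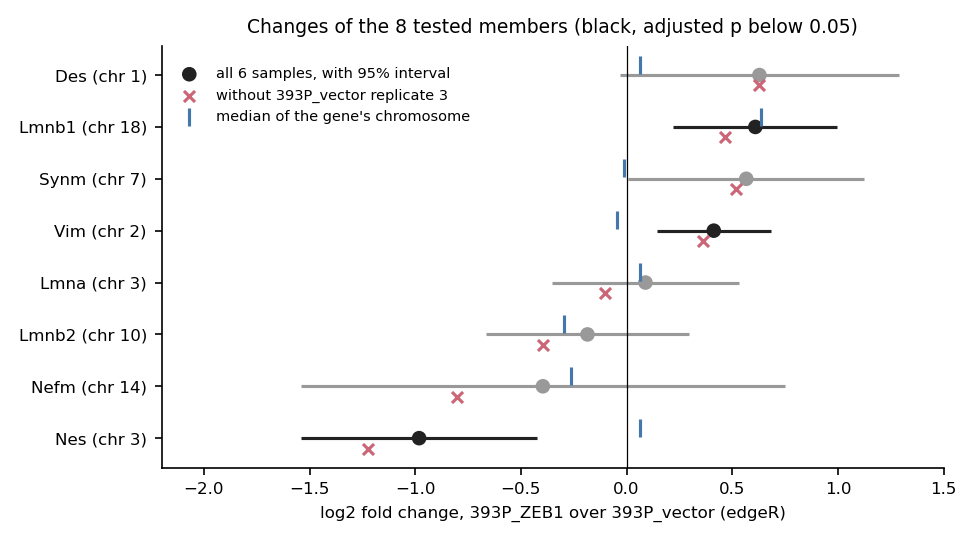
Log2 fold change of the 8 tested members (points, with their 95% intervals; black where the adjusted p was below 0.05), the same without 393P_vector replicate 3 (crosses) and the median of all tested genes on the same chromosome (blue ticks). Lmnb1 (0.61) sits near the median of its chromosome (0.64), whereas Vim (0.41) and Nes (-0.98) lie away from medians of -0.05 and 0.06.

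Ratios within a sample do not depend on the scaling of the libraries. The level of Lmna per kilobase was 5.34, 5.22 and 4.79 times that of Lmnb1 plus Lmnb2 in 393P_vector replicates 1 to 3 and 3.34, 4.53 and 4.02 times in 393P_ZEB1 replicates 1 to 3. A-type over B-type lamin mRNA was thus lower in each 393P_ZEB1 sample than in any vector sample, with a mean log2 difference of -0.38. The exact permutation test gave p = 0.1 (two-sided), which is the smallest it can give here. With Lmnb1 making up most of the B-type sum, the shift of its chromosome enters this ratio. Between the B-type lamins, the ratio of Lmnb1 to Lmnb2 was 4.06, 3.80 and 4.72 in 393P_vector and 7.65, 6.48 and 7.16 in 393P_ZEB1, without overlap (mean log2 difference 0.76, exact permutation p = 0.1, two-sided). These genes lie on chromosomes whose medians differ in the same direction, and the part of that difference was not tested.

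Vimentin was also set against the keratins within each sample, since both are filaments of the cytoplasm. The level of Vim per kilobase was 1.46, 1.39 and 1.42 times the sum of Krt8 and Krt18, the keratin pair of simple epithelia, in 393P_vector replicates 1 to 3. In 393P_ZEB1 replicates 1 to 3 it was 2.98, 3.24 and 3.19 times that sum. All 393P_ZEB1 samples were above all vector samples, including the vector replicate that stood apart, and vimentin mRNA exceeded that of these keratins already in the vector cells. The mean log2 difference was 1.14, or 2.21-fold (exact permutation p = 0.1, two-sided, the smallest possible). Krt8 (log2 fold change -0.61) and Krt18 (-0.77) lie on chromosome 15, whose 574 tested genes had a median of -0.33 with 37.3% called lower, so the shift of that chromosome enters the ratio. With Krt7, Krt19 and Krt20 added to the sum, a choice made after seeing the data, the ratio was 0.838, 0.818 and 0.879 in 393P_vector and 1.98, 2.05 and 2.03 in 393P_ZEB1, so that keratins exceeded vimentin in every vector sample and vimentin exceeded keratins in every 393P_ZEB1 sample.

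**Figure D4:**
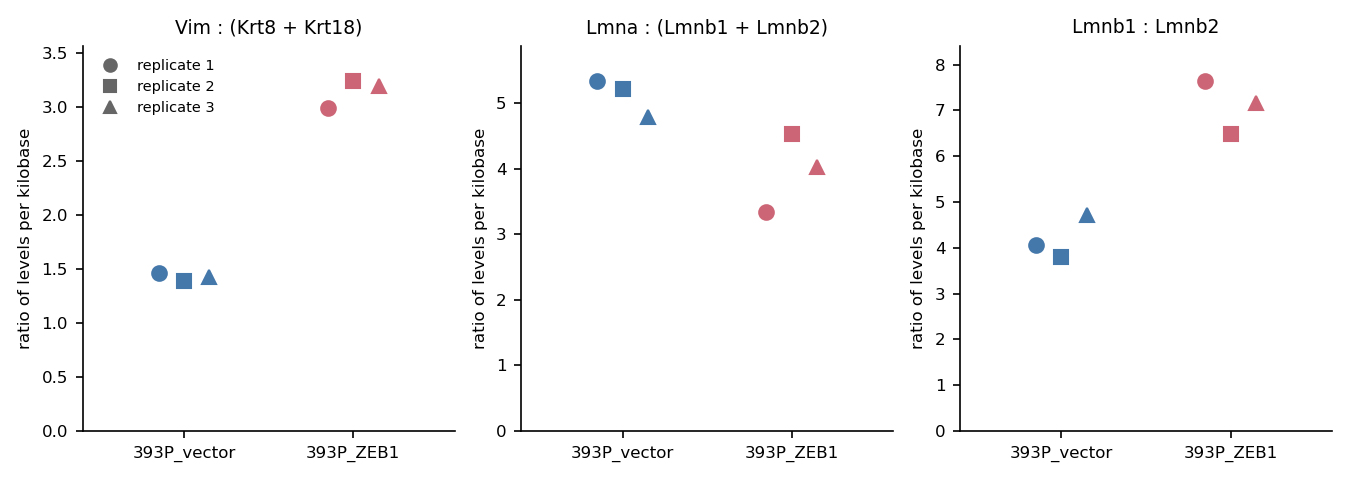
Ratios of levels per kilobase in each sample of 393P_vector (blue) and 393P_ZEB1 (red) on linear axes from 0, with marker shapes for the replicates. Vim over Krt8 plus Krt18 is 1.39 to 1.46 in 393P_vector and 2.98 to 3.24 in 393P_ZEB1, Lmna over B-type lamins is 4.79 to 5.34 and 3.34 to 4.53, and Lmnb1 over Lmnb2 is 3.80 to 4.72 and 6.48 to 7.65.

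The muscle filament genes were barely detected. Des, on chromosome 1 from 75360344 to 75367715 (plus strand), encodes desmin, the filament protein of muscle, and had 11, 14 and 18 reads in 393P_vector and 17, 22 and 18 in 393P_ZEB1. In CPM these were 0.194, 0.238 and 0.217 against 0.318, 0.396 and 0.295, higher in all 393P_ZEB1 samples, but none of its 9 exons had over 10 reads in any sample. Its log2 fold change was 0.63 (standard error 0.28, adjusted p = 0.121, edgeR). Synm, on chromosome 7 from 67730161 to 67759742 (minus strand), encodes synemin, which joins desmin or vimentin filaments and cannot form filaments on its own. It measured 0.830, 0.612 and 0.650 CPM in 393P_vector and 1.22, 0.864 and 1.02 CPM in 393P_ZEB1, from 36 to 65 reads a sample. The samples did not overlap, and the log2 fold change of 0.57 did not pass the threshold (standard error 0.24, adjusted p = 0.103, edgeR). In GENCODE M21 an exon of Des overlaps the antisense gene Gm15179 by 220 bases and exons of Synm overlap Gm45102 by 426 and Ttc23 by 84 bases, on the opposite strand. The strand setting of the counting is not given in the sources used here, and reads of these partners could not be told apart. Of the muscle markers, 4 of 7 were below 1 CPM in every sample, and their sum was 12.4 to 28.8 CPM in 393P_vector, mostly Acta1 and Acta2, and 3.58 to 4.13 CPM in 393P_ZEB1. The upper value in 393P_vector came from replicate 3, since Acta1 was 3.09, 3.50 and 19.1 CPM in 393P_vector replicates 1 to 3, and without Acta1 the sums were 9.35 to 9.68 CPM and 1.87 to 2.93 CPM. The muscle regulators Myod1 and Myog did not exceed 0.0935 and 0.0843 CPM.

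Filament genes of neurons and glia were at the lower end as well. Nefm, on chromosome 14 from 68119545 to 68125004 (minus strand), encodes the medium neurofilament subunit and measured 2.12, 2.21 and 0.602 CPM in 393P_vector replicates 1 to 3 and 0.823, 1.21 and 1.67 CPM in 393P_ZEB1 replicates 1 to 3. The groups overlapped because of 393P_vector replicate 3. Its log2 fold change was -0.40 (standard error 0.49, adjusted p = 0.561, edgeR) and -0.80 without that library, where it passed the threshold (adjusted p = 0.0283). In the main fit the tested genes of chromosome 14 had a median of -0.26 with 32.9% called lower. Nefm less that median was -0.13, and the part of this shift in its value was not tested. Nefl, the light neurofilament subunit on the same chromosome from 68083884 to 68087737 (plus strand), had 0, 4 and 4 reads in 393P_vector and 6, 3 and 1 in 393P_ZEB1, about the detection limit. Gfap, on chromosome 11 from 102887336 to 102897200 (minus strand), encodes the glial filament protein and had 6, 5 and 15 reads in 393P_vector and 11, 7 and 6 in 393P_ZEB1. A difference in Gfap or Nefl was not detectable at this depth. Exons annotated to Nefl and Nefm in GENCODE M21 overlap by up to 1108 bases on opposite strands, although the counted intervals given above do not overlap. Of the neuronal markers 4 of 6 were below 1 CPM in every sample (sums of 26.8 to 34.97 CPM in 393P_vector and 32.6 to 33.4 CPM in 393P_ZEB1, nearly all from Map2). Of the astrocyte markers it was 4 of 5, with sums of 244 to 287 and 111 to 123 CPM made up almost entirely by Gja1, a gap junction gene that epithelia also use.

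The profile of Vim over the 6 samples was shared most closely by Zmynd8, Rest, Camkk2 and Elmo2, out of 9006 genes with a mean of at least 10 CPM. Likeness was the root mean square difference of log2 CPM after each gene was centred on its mean, which was 0.0309 for Zmynd8, 0.0384 for Rest, 0.0395 for Camkk2 and 0.0396 for Elmo2. Zmynd8, a chromatin reader, measured 97.7, 96.3 and 84.4 CPM in 393P_vector and 118, 128 and 133 CPM in 393P_ZEB1. Rest, a repressor of neuronal genes, measured 123, 120 and 105 CPM in 393P_vector and 149, 160 and 163 CPM in 393P_ZEB1. Both were lowest in 393P_vector replicate 3, as was Vim. No other member was near Vim by this measure: Lmnb1 ranked 2220 (0.210), Lmna 2694 (0.228), Lmnb2 5317 (0.354) and Nes 8380 (0.723). These are descriptions over 6 samples that share the same 2 groups.

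The other genes of the filament and lamina system, in 7 lists of 48 genes, gave 1 higher and 16 lower of 45 tested, beside the same backgrounds of 18.3% and 19.3%. Part of these calls lay on chromosomes that were shifted down as a whole. On the chromosomes with a median log2 fold change below -0.25, a limit set after seeing the data (6, 10, 14, 15 and 17), 32.0% to 37.3% of all tested genes were lower and 4.74% to 12.2% higher, and 9 of the 14 list genes there were lower. On the other chromosomes of the list genes, 8.58% to 22.5% of all tested genes were lower, and 7 of the 31 list genes there were. These 7 were Krt20 and Evpl (chromosome 11, median 0.27), Dsp (13, 0.13), Sync and Icmt (4, 0.03), Syne4 (7, -0.01) and Cryab (9, -0.14). The part of the chromosome shifts in the calls was not tested. Without 393P_vector replicate 3, 3 list genes were higher and 24 lower of 46 tested, where 26.2% of all tested genes were higher and 26.8% lower. Among simple epithelial keratins, 4 of 5 were lower (median log2 fold change -0.77, against -0.02 for all genes). Krt7 was 826, 916 and 741 CPM in 393P_vector and 2.04, 2.72 and 2.05 CPM in 393P_ZEB1, a 365-fold fall (log2 fold change -8.51, adjusted p = 3.70e-07, edgeR). Krt20 fell 5.36-fold, whereas Krt18 fell 1.71-fold and Krt8 1.53-fold. In 393P_ZEB1 samples Krt8 was still 580, 596 and 581 CPM and Krt18 1289, 1286 and 1406 CPM. Krt19 had a log2 fold change of -0.39 (adjusted p = 0.0808, edgeR). Without 393P_vector replicate 3 it was -0.53 (adjusted p = 0.000899), and all 5 keratins were lower.

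Of the 7 plakins, the linkers that tie filaments to junctions and to the other cytoskeletal systems, 3 were lower and 1 higher (median -0.42). Dsp, desmoplakin, which anchors filaments at desmosomes, was 237, 230 and 187 CPM in 393P_vector and 7.76, 6.84 and 8.11 CPM in 393P_ZEB1, 28.8-fold lower (log2 fold change -4.85, adjusted p = 7.11e-07, edgeR). Eppk1, epiplakin, a keratin binder, was 4.02-fold lower (adjusted p = 0.000258). Evpl was 1.86-fold lower with overlapping samples (adjusted p = 0.0463), and Ppl, periplakin, was 1.66-fold higher (adjusted p = 0.0252). Ppl lies on chromosome 16, whose tested genes had a median of 0.25 with 29.7% called higher. Less that median its log2 fold change was 0.49. Leaving out single libraries took Ppl above the threshold (adjusted p = 0.0833 without 393P_ZEB1 replicate 1 and 0.0845 without 393P_ZEB1 replicate 3), and Evpl passed only without 393P_vector replicate 3 among these refits (its adjusted p was 0.0826 to 0.151 with any other single sample left out). Plec, the plectin gene, which links vimentin to actin and to the nucleus, had a log2 fold change of -0.42 (adjusted p = 0.262, edgeR). It was -0.70 without 393P_vector replicate 3 (adjusted p = 0.000290, edgeR). Plec and Eppk1 lie on chromosome 15, whose median in the main fit was -0.33.

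Of 8 further intermediate filament genes outside the keratins, 6 were tested and 1 was lower (median -0.22): Sync, syncoilin, at 1.01, 1.12 and 0.819 CPM in 393P_vector and 0.224, 0.342 and 0.426 CPM in 393P_ZEB1 (log2 fold change -1.55, adjusted p = 0.00485, edgeR). Of 4 genes for chaperones and turnover of filaments, 1 was lower (median -0.03). This was Cryab, the small heat shock protein alpha B-crystallin, which binds vimentin and desmin filaments and fell 8.50-fold, from 22.9, 23.95 and 37.4 CPM to 3.03, 3.46 and 3.42 CPM (adjusted p = 3.17e-05).

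**Figure D5:**
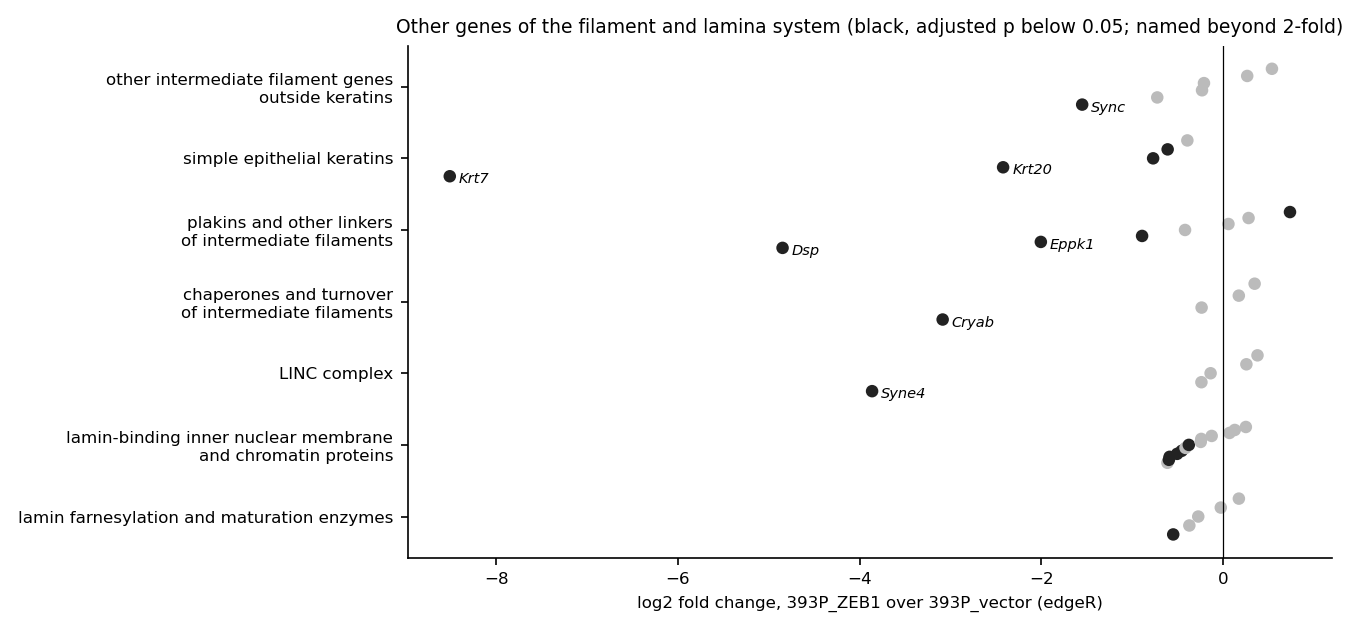
Log2 fold changes of the 45 tested genes in 7 lists of the filament and lamina system, 1 row per list and 1 point per gene, black where the adjusted p was below 0.05 and named where the change also exceeded 2-fold. The large decreases are those of Krt7 (-8.51), Dsp (-4.85), Syne4 (-3.86), Cryab (-3.09), Krt20 (-2.42), Eppk1 (-2.01) and Sync (-1.55), while the lamin-binding genes lie between -0.61 and 0.25.

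At the nucleus, the LINC complex couples the lamina to the cytoskeleton across the nuclear envelope. Of its 5 tested genes 1 was lower (median -0.14). It was Syne4, listed in the files as AI428936 and encoding the kinesin-binding nesprin-4, at 3.75, 5.36 and 2.95 CPM in 393P_vector and 0.168, 0.234 and 0.410 CPM in 393P_ZEB1 (log2 fold change -3.86, adjusted p = 0.000166, edgeR). The Sun1 and Sun2 genes of the inner membrane changed by 0.26 and -0.24 on the log2 scale, short of the threshold (adjusted p = 0.173 and 0.396). Without 393P_vector replicate 3, 3 of the 5 were lower, including Sun2 at -0.46 (adjusted p = 0.000544, edgeR). In that refit 26.8% of all tested genes were lower.

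Lamin-binding proteins of the inner nuclear membrane and chromatin gave 5 lower and none higher of 13 tested (median -0.38). The 5 were Lemd2 (-0.60, adjusted p = 0.0134, edgeR), Lemd3 (-0.59, adjusted p = 0.00979), Nrm (-0.51, adjusted p = 0.0316), Tmem43 (-0.46, adjusted p = 0.00946) and Tmpo (-0.38, adjusted p = 0.0167). All 5 lie on chromosomes shifted down as a whole: Lemd2 and Nrm on chromosome 17 (median -0.43, 36.9% of genes lower), Lemd3 and Tmpo on chromosome 10 (-0.30, 32.0% lower) and Tmem43 on chromosome 6 (-0.36, 35.4% lower). Less these medians, their values ran from -0.29 (Lemd3) to -0.078 (Nrm), and a change of these genes cannot be told apart from the shift of their chromosomes. Lemd2, Lemd3 and Tmpo encode LEM domain proteins, which bind lamins and the chromatin protein that Banf1 encodes. Tmpo, the most abundant of these by CPM, was 506, 486 and 478 CPM in 393P_vector and 391, 380 and 360 CPM in 393P_ZEB1, without overlap. The emerin gene Emd had a log2 fold change of -0.61 with an adjusted p of 0.0786, and Lbr, the lamin B receptor, one of -0.24 (adjusted p = 0.217). Emd was 50.4, 52.5 and 92.5 CPM in 393P_vector replicates 1 to 3, and without replicate 3 its change was -0.27 (adjusted p = 0.0335, edgeR). Without 393P_vector replicate 3, 7 of the 13 were lower and 1 was higher, beside 26.8% and 26.2% of all tested genes. Without 393P_ZEB1 replicate 1 or replicate 2, 3 were lower, and without 393P_ZEB1 replicate 3 it was 1. Over all genes, 1842, 1802 and 1783 were lower without 393P_ZEB1 replicates 1, 2 and 3, against 2680 in the main fit. Each of the 5 genes lost its call without at least 1 of the samples (adjusted p of 0.0546 to 0.121 there, edgeR), with its direction kept. Of 5 genes for farnesylation and maturation of lamins, 1 was lower (median -0.27): Icmt, the methyltransferase of farnesylated proteins, at 114, 119 and 94.97 CPM in 393P_vector and 70.5, 76.6 and 76.9 CPM in 393P_ZEB1 (log2 fold change -0.55, adjusted p = 0.00808). Zmpste24, the protease that matures prelamin A, had a log2 fold change of 0.17 (adjusted p = 0.375).

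Beside these lists, all 6 mesenchymal reference genes, Zeb1 among them, were higher (median log2 fold change 1.03) and all 6 epithelial reference genes were lower (median -6.53). Over all tested genes 18.3% were higher and 19.3% lower. Both reference lists were written with earlier results of these data known, and Zeb1 is the introduced gene, so these counts are a description and not a test. Cdh2, N-cadherin, rose from 44.5, 38.4 and 57.6 CPM to 192, 204 and 184 CPM, a log2 fold change of 2.04 (adjusted p = 4.87e-05, edgeR), and Twist1 had one of 2.21 (adjusted p = 0.00194). The change of Vim, 0.41, was below that of each mesenchymal reference gene, the lowest of which was 0.56, but these differences were not tested. Zeb1 and Cdh2 lie on chromosome 18, whose tested genes had a median of 0.64 with 64.5% called higher. The part of that shift in their values was not tested. Among the epithelial reference genes, the log2 fold change was -6.53 for Epcam, -7.75 for Esrp1 and -8.01 for Rab25 (adjusted p = 3.25e-05, 2.63e-07 and 2.67e-06).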

How the data were processed

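RNA of 6 samples of 393P cells, 3 with the empty vector and 3 with ZEB1, was analysed. The deposited tables, 1 a sample, give raw read counts per RefSeq feature, with coordinates matching GRCm38, and the authors' RPKM, scaled by exon length and total reads and used only as an alternative for levels. The deposited number of exons with over 10 reads was used as given. Aligner, counter and strand setting are not given in the sources used here. Repeated feature names were kept once. Counts were filtered by filterByExpr (minimum count 10), normalized by TMM (factors 0.979 to 1.05) and tested with the robust quasi-likelihood fit of edgeR 4.0.16 in R 4.3.3 over all 13884 genes kept, with 1 coefficient for the condition and Benjamini-Hochberg adjustment at 0.05. The biological coefficient of variation was 0.184. Standard errors and 95% intervals came from the same fit. Levels per kilobase were CPM divided by exon length. Ratios were compared by exact permutation tests of log2 values, two-sided. DESeq2 1.42.0 and limma 3.58.1 were alternatives. The fits were tested on simulated data. Motifs were searched with Python 3.11.15, and figures were drawn with matplotlib 3.10.9. No replicates were identical or differed by less than the sampling noise.

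The members and gene lists were chosen with earlier results of these data known. The text names all 10 members, Zeb1, up to 3 increases and 3 decreases per list past the threshold with at least 1 CPM in the higher group, and the 5 genes most like Vim, 1 of which is not reported here. Other list genes, such as Sync, Krt8, Krt19, Plec, Tmpo, Tmem43, Emd, Lbr, Sun1, Sun2 and Zmpste24, were named after their values were seen.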

Additional observations from a re-analysis of the deposited data

How the results depend on the processing

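The direction of Vim, Nes, Lmnb1, Des, Synm and Nefm was kept in every refit, the exception being Lmnb1 less the median of its chromosome (-0.027, no test). With each sample left out in turn, genes past the threshold numbered 3644 to 7473 (1861 to 3698 higher, 1783 to 3775 lower), members 0 to 2 higher and 0 to 3 lower, and log2 fold changes spanned 0.36 to 0.47 for Vim, -0.10 to 0.24 for Lmna, 0.46 to 0.73 for Lmnb1 and -0.40 to 0.014 for Lmnb2. The ratio of Lmna to B-type lamins then spanned -0.48 to -0.26 and that of Vim to Krt8 plus Krt18 1.12 to 1.18, with an exact permutation p of 0.2, the smallest possible. Limma voom with sample weights gave 8072 genes (3977 higher, 4095 lower) and 3 members lower, with Lmnb2 at -0.35 (adjusted p = 0.00961) and Lmna at -0.045. Its weight for 393P_vector replicate 3 was 0.111, against 0.725 to 3.02 for the others. At an adjusted p below 0.01 there were 3130 genes (1584 higher, 1546 lower) and 0 members in either direction, so Vim (0.41) and Lmnb1 (0.61) did not pass. Against a fold change of 1.5, edgeR called 2200 genes (1081 higher, 1119 lower) and 0 members, with 8 tested members at adjusted p from 0.123, that of Nes, to 1 for Vim (0.41) and 0.671 for Lmnb1 (0.61). Without the 10 most counted genes, Vim among them, 1 member was higher. With DESeq2's Wald test, DESeq2's size factors, no filter, at least 10 counts in every sample, or without features at more than 1 locus, 2 members were higher and 1 lower. Levels per kilobase from the deposited RPKM moved by less than the SD between replicates for all 10 members in both groups.

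The labels do not say whether samples with equal replicate numbers were handled together. Deviations of same-numbered samples correlated at 0.195, -0.126 and -0.0261 across genes, and of differently numbered ones at -0.120 to 0.157. With 3 samples a group these values cannot decide whether the samples were paired. With the replicate block, 1 member was higher, Vim being at 0.41 (adjusted p = 0.0669), and Nes (-0.94) and Lmnb1 (0.62) passed. In these results the cause of a changed call was not tested. With 3 samples a group and 1 library apart, small changes of Lmna, Lmnb2 and Nefm could not be settled, and counts of at most 22 a sample limit Des, Gfap and Nefl.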
